A study of Mus musculus with 5 samples.

Results

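The collagen chains were followed in forelimbs of mouse embryos at E11.5, when the limb bud is growing out and the first cartilage condensations appear. A gene counted as a chain where its symbol had the form Col, a number, a and a number, and 42 of the 22653 single gene symbols in the deposited table did so. They fall into 5 structural classes with 11 fibrillar, 8 FACIT, 9 network, 6 beaded and 4 membrane chains, and 4 further chains (Col15a1, Col18a1, Col26a1 and Col28a1) lie outside these classes. Of the 42 chains 32 reached a mean of 1 FPKM over the genotypes, the minimum used for a call, and 10 did not. FPKM is the number of sequenced fragments scaled to transcript length and to the size of the library. Levels of different chains are therefore compared per length, with other differences in how well transcripts are measured left uncorrected.

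The mutant embryos, 2 samples, had the genotype Prx1Cre+/-;Prmt5c/c and are called Prmt5cKO. In them a Cre recombinase driven by the Prx1 promoter, which is active in limb bud mesenchyme, meets a conditional Prmt5 gene. Prmt5 encodes an arginine methyltransferase that acts on histones and on Sm proteins of the splicing machinery. The other 3 samples were labelled control, with no alleles given. All 5 were forelimbs with 47 to 48 somites from a mixed C57BL/6 and Swiss Webster background, described as biological replicates; the sources used here do not say whether a sample pooled embryos. The values are 1 FPKM per genotype, which the authors computed from the replicates; no SD or range over samples can be given and the spread between embryos is unknown.

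Collagens are secreted or membrane proteins in which 3 chains wind into a triple helix of Gly-X-Y repeats. Fibrillar chains build the banded fibrils of skin, tendon, bone and cartilage, and FACIT chains (fibril-associated collagens with interrupted triple helices) sit on the surface of those fibrils. Network chains form the sheets of basement membranes and related layers, beaded chains form the microfibrils of collagen VI, and membrane chains cross the plasma membrane. In the early limb bud, mesenchyme makes loose fibrillar collagen, and cells that enter the cartilage lineage switch on the chains of collagens II, IX and XI.

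Prmt5 stood at 12.5 FPKM in Prmt5cKO and 40.9 FPKM in control. The FPKM covers the whole transcript and the whole forelimb, so it does not measure how completely the gene was deleted. The forelimb label was checked with Tbx5, at 19.9 FPKM in Prmt5cKO and 23.0 in control, against the hindlimb genes Tbx4 (2.95 and 3.81) and Pitx1 (0.268 and 0.143). Sex-linked transcripts differed as well, with Xist at 0.392 FPKM in Prmt5cKO and 87.3 in control and the Y-linked Ddx3y at 21.8 and 0.0840, so for any difference below the embryos' sex and their genotype cannot be told apart. Macrophage markers were higher, with 6 of 8 past the authors' threshold, against 4.39% of all named genes of at least 1 FPKM that rose. Their summed level was 37.9 FPKM in Prmt5cKO and 22.0 in control. The part of these markers in the collagen results was not tested. Because the tissue was whole forelimb, fewer cells of a type and less RNA per cell cannot be told apart in any value below.

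Collagen levels were lower in Prmt5cKO, with the lowest ratios to control, among chains of at least 5 FPKM, in the fibril-associated collagen IX, while the main basement membrane chains stood close to control. Of the 32 chains at 1 FPKM or more 16 fell and none rose at the authors' q under 0.05, 13 did not pass and 3 (Col12a1, Col6a3 and Col26a1) were not tested by the authors. Over all 11674 named genes of that level 17.6% fell and 4.39% rose, so the collagen share of falls, 50%, stood above the background. A q here is the p-value after adjustment in the authors' deposited table; that table gives no unadjusted p-value, so none can be set beside the count of 0. Lower values were found for 30 of the 32 chains, against 69.8% of all named genes. The median log2 ratio of Prmt5cKO over control, with 1 FPKM added to both values, was -0.52 over the 32 chains and -0.12 over all named genes. Among the 24 chains of at least 5 FPKM 13 fell (54.2%), and none rose, against 18.2% fallen and 4.57% risen of all genes of that level. Falls of 2-fold or more were 5 of the 32 (15.6%; 1.34% of all named genes): Col9a1, Col9a2, Col9a3, Col16a1 and Col8a2, the same 5 collagens that stand in the authors' shorter table of 208 genes.

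**Figure D1:**
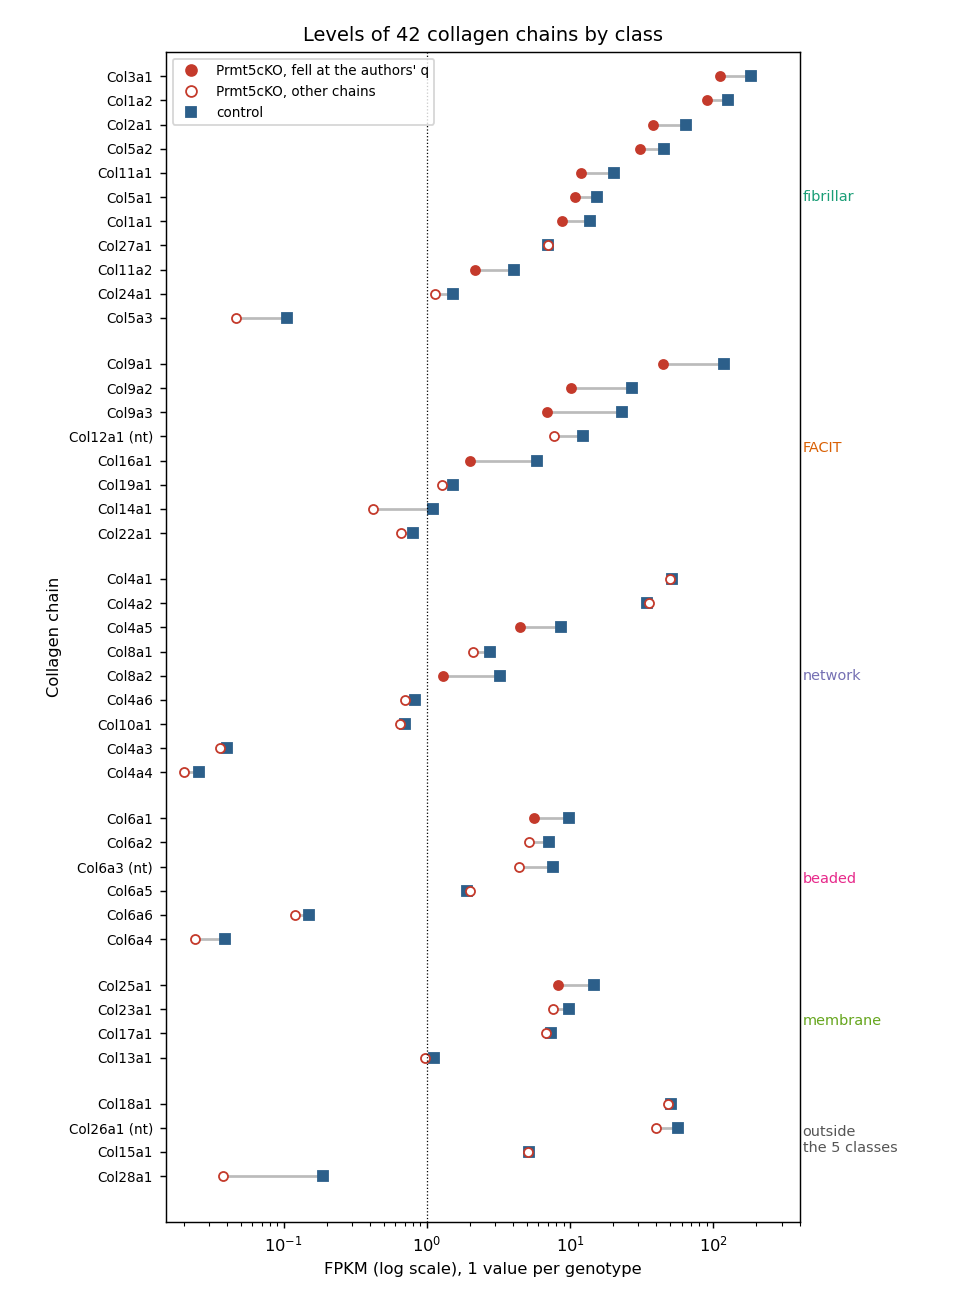
Level of each of the 42 collagen chains in FPKM on a log axis, grouped by class, with Prmt5cKO as circles and control as squares joined by a line; filled circles are chains with a mean of at least 1 FPKM that fell at the authors' q under 0.05, nt marks chains the authors did not test, and the dotted line is 1 FPKM. The collagen IX chains show the widest gaps among the abundant chains, while Col4a1, Col4a2, Col18a1, Col15a1 and Col27a1 lie almost on top of each other in both genotypes.

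Added over their chains, the 42 collagen genes reached 614 FPKM in Prmt5cKO and 947 in control, or 64.9% of the control sum. The FACIT sum was 73.8 FPKM in Prmt5cKO and 190 in control (38.9%), and the fibrillar sum 311 and 483 (64.5%). Col9a1 alone made up 60.5% of the FACIT sum in Prmt5cKO and 62.3% in control. Among FACIT chains outside collagen IX, Col16a1 and Col14a1 were at 34.3% and 38.1% of control. Col12a1 was at 62.9%, and Col19a1 and Col22a1 were at 83.5% and 83.0%. The beaded sum was 17.4 FPKM in Prmt5cKO and 26.5 in control (65.5%), the membrane sum 23.6 and 33.0 (71.6%), and the network sum 94.5 and 102 (92.3%). Most of the network sum was Col4a1 and Col4a2; the other 7 network chains added up to 9.30 FPKM in Prmt5cKO and 16.3 in control (57.1%). FACIT chains therefore made up 12.0% of the collagen sum in Prmt5cKO and 20.1% in control, network chains 15.4% and 10.8%, and fibrillar chains 50.7% and 51.0%. These sums carry no test.

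The whole table leaned downwards in Prmt5cKO, so class medians were also set against the median of all named genes. Relative to it the median log2 ratio was -1.14 for FACIT, -0.45 for fibrillar, -0.41 for beaded, -0.17 for network and -0.10 for membrane chains, and 0.05 for the chains outside the classes. Rescaling the table to a median ratio of 1 adds 0.13 to each log2 ratio taken without the added 1 FPKM. It leaves 25 of the 32 chains lower, against 50% of all named genes, and puts Col4a1, Col15a1, Col17a1, Col18a1 and Col27a1 slightly above control. None of those 5 had passed the threshold.

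**Figure D2:**
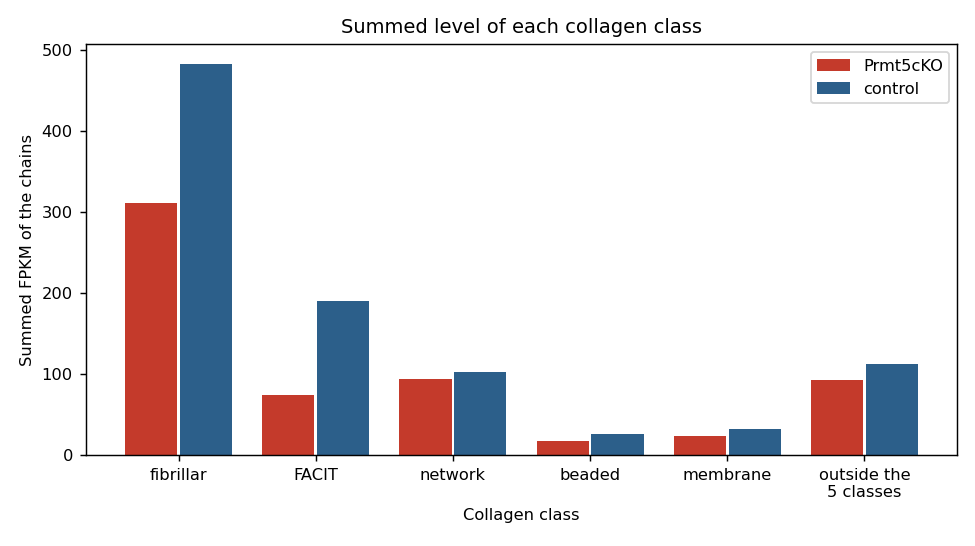
Summed FPKM of the chains of each class, Prmt5cKO as the left bar and control as the right bar of each pair, from 1 value per genotype with no error bar. The FACIT bar stands at 73.8 in Prmt5cKO and 190 in control, most of it Col9a1 in both genotypes. The network bars, 94.5 and 102, are the closest pair by ratio.

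Most fibrillar chains fell, to between 53.5% and 71.0% of control. Of 10 fibrillar chains at 1 FPKM or more 8 fell, none rose and 2 did not pass (80%, against the 17.6% of all genes), and the class median of the log2 ratio was -0.57. Col3a1, the chain of collagen III and the most abundant collagen transcript here, had 111 FPKM in Prmt5cKO and 184 in control, a log2 ratio of -0.73 with q = 9.54e-07 in the authors' deposited table. The collagen I pair, which forms the main fibril of bone, skin and tendon, fell less: Col1a2 had 90.0 FPKM in Prmt5cKO and 127 in control (log2 ratio -0.49), and Col1a1 had 8.83 and 13.7 (-0.63), with q = 3.98e-04 and 2.60e-04 in the authors' deposited table. By FPKM Col1a1 was thus the scarcer transcript by 10.2-fold in Prmt5cKO and 9.27-fold in control, although the usual collagen I molecule holds more α1 than α2 chains. Whether a bias in measuring either transcript adds to this gap was not tested.

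Collagen V controls how thick collagen I fibrils grow. Its chains Col5a2 and Col5a1 stood at 30.7 and 10.9 FPKM in Prmt5cKO, against 45.6 and 15.5 in control. Both fell, with log2 ratios of -0.57 and -0.51, q = 2.03e-05 and 2.20e-04 in the authors' deposited table. The remaining chain of this collagen, Col5a3, was nearly silent at 0.0461 FPKM in Prmt5cKO and 0.106 in control.

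The fibril of cartilage is built from Col2a1, Col11a1 and Col11a2. Col2a1, the defining collagen of cartilage, had 38.2 FPKM in Prmt5cKO and 64.8 in control, a log2 ratio of -0.76 with a q of 0 in the authors' deposited table. Col11a1 had 11.9 FPKM in Prmt5cKO and 20.1 in control (log2 ratio -0.76, q = 9.30e-08 in the authors' deposited table). Col11a2 had 2.17 FPKM in Prmt5cKO and 4.05 in control, the lowest log2 ratio of the fibrillar chains at 1 FPKM or more, -0.90, with q = 1.22e-13 in the authors' deposited table. Without these 3 chains the median log2 ratio of the fibrillar class was -0.49.

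Col27a1, a fibrillar chain also made by cartilage, was nearly level and did not pass, at 6.98 FPKM in Prmt5cKO and 7.00 in control (q = 0.972 in the authors' deposited table). Col24a1, which accompanies collagen I in forming bone, had 1.13 and 1.52 FPKM in Prmt5cKO and control and did not pass, with q = 0.241 in the authors' deposited table.

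The Col3a1 promoter is shown because it belongs to the most abundant chain. The window runs from 250 bases before to 50 bases after the RefSeq start, chr1:45311288-45311587 on the plus strand of GRCm38.p6. Capitals mark any match, on either strand, to AACAAT, the core bound by SOX proteins, TATAAA, known as the TATA box, GGGCGG, known as the GC box, or CCAAT.
Col3a1: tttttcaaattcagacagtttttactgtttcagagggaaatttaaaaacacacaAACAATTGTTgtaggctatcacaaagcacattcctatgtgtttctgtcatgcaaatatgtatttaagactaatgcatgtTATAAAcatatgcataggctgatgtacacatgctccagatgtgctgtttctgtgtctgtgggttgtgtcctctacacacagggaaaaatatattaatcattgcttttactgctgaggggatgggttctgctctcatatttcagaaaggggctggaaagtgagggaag
The window holds AACAAT on both strands as overlapping matches, and a TATAAA match, and it was the only one of 36 collagen windows with the SOX core. Over 32851 promoter windows of all genes 10.7% hold that core.

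Among FACIT chains the collagen IX genes and Col16a1 fell steeply. Of 6 FACIT chains at 1 FPKM or more 4 fell, none rose, 1 missed the threshold and Col12a1 was untested (66.7% fallen, against 17.6% of all genes), and the class median was -1.26. Collagen IX coats the collagen II fibrils of cartilage and links them to other matrix. Col9a1 had 44.7 FPKM in Prmt5cKO and 118 in control, 37.8% of the control level. Col9a2 had 10.2 FPKM in Prmt5cKO and 27.0 in control (37.7%), and Col9a3 had 6.86 and 23.0 (29.9%). Their log2 ratios were -1.40, -1.41 and -1.74, each with a q of 0 in the authors' deposited table. Collagen IX was in this way further below control than the cartilage fibril chains it binds, whose levels were 53.5% to 59.1% of control; this difference between groups of chains was not tested.

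Col16a1, a FACIT chain found near cartilage fibrils and basement membranes, had 2.001 FPKM in Prmt5cKO and 5.83 in control (log2 ratio -1.54, a q of 0 in the authors' deposited table). Col14a1, a FACIT chain of tendon and other dense connective tissue, had 0.420 FPKM in Prmt5cKO and 1.10 in control, with a log2 ratio of -1.39 beside q = 2.63e-07 in the authors' deposited table; its mean of 0.762 FPKM lies below the minimum, so it is not among the 16 falls. It was the 1 chain of the 10 below the minimum whose q passed, against 1.41% of all genes between 0 and 1 FPKM that fell. Col12a1, its relative in fascia and tendon, had 7.74 FPKM in Prmt5cKO and 12.3 in control and was not tested by the authors. Col19a1, found at basement membrane zones, had 1.28 and 1.53 FPKM in Prmt5cKO and control and did not pass, with q = 0.358 in the authors' deposited table. Col22a1, known from the junction of muscle and tendon, was under the minimum at 0.663 FPKM in Prmt5cKO and 0.799 in control.

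Col9a1 has a second row in the table, with 2.37 FPKM in Prmt5cKO and 3.17 in control (log2 ratio -0.42, q = 0.0138 in the authors' deposited table). RefSeq lists 2 starts for this gene, which give the long and the short form of the chain. The table holds no coordinates, so neither row can be assigned to a start. Both windows and that of Col9a2 are printed with the same motifs in capitals, since these are the collagen IX chains with a promoter in the reference; the first Col9a1 window is chr1:24177360-24177659, the second chr1:24194953-24195252 and that of Col9a2 chr4:121039316-121039615, all on the plus strand of GRCm38.p6.
Col9a1 start 1: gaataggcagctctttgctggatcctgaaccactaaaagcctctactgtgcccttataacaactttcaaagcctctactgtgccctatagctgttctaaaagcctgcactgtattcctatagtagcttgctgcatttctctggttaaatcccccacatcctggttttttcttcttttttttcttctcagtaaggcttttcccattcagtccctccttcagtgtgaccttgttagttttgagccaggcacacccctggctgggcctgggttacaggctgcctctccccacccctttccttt
Col9a1 start 2: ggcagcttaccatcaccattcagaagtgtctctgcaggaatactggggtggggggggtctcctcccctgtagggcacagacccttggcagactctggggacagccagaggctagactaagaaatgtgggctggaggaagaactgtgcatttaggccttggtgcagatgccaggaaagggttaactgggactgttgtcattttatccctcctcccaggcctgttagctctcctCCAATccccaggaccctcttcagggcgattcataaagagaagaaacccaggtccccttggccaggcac
Col9a2: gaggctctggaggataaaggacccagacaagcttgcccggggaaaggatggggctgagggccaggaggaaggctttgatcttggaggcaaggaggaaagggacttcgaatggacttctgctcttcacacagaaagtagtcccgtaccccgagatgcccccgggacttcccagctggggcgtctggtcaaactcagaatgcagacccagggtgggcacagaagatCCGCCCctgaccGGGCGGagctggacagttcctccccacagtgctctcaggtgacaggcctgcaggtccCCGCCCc
The first Col9a1 window holds none of the searched motifs and the second a single CCAAT match, whereas the Col9a2 window holds 3 GC boxes. In GENCODE M21 on GRCm38 (mm10) Col9a1 lies on chromosome 1 from 24177610 to 24252684, Col9a2 on chromosome 4 from 121039385 to 121055322 and Col9a3 on chromosome 2 from 180597790 to 180622189, all on the plus strand.

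**Figure D3:**
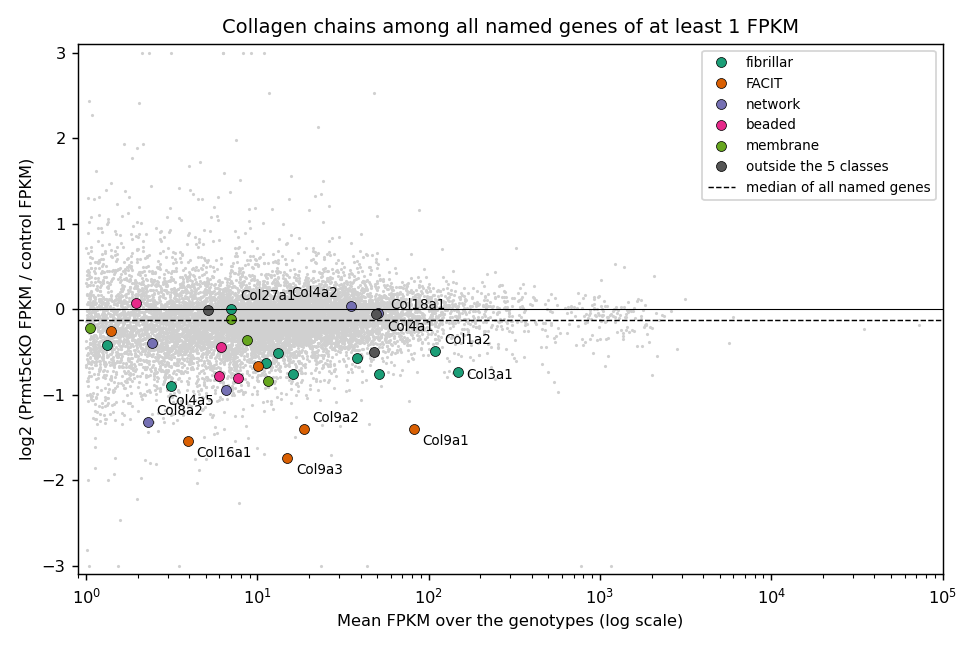
Log2 of the Prmt5cKO to control FPKM ratio against the mean FPKM on a log axis for all named genes of at least 1 FPKM (grey; ratios beyond 3 in either direction are drawn at the edge), with the collagen chains coloured by class and the dashed line at the median of all genes. The chains of collagen IX and Col16a1 lie between -1.40 and -1.74, and Col4a1, Col4a2 and Col18a1 lie between -0.06 and 0.03.

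The main basement membrane chains were at nearly the same level in both genotypes. Of 5 network chains at 1 FPKM or more 2 fell, none rose and 3 did not pass (40%, against 17.6% of all genes), with a class median of -0.28. That median rests on which chains are counted, and was -0.045 with a minimum of 5 FPKM and -0.16 without X-linked chains. With no minimum it was -0.049, the ratio of Col10a1 after 1 FPKM was added to both values. Without that addition the log2 ratio of Col10a1 was -0.12. Those of Col4a6, Col4a3 and Col4a4, also under the minimum, were -0.23, -0.16 and -0.35. Col4a1 and Col4a2, the chains of the collagen IV found in nearly every basement membrane, were among the most abundant collagens and stood close to control. Col4a1 had 49.8 FPKM in Prmt5cKO and 51.4 in control (q = 0.703), and Col4a2 had 35.4 and 34.7 (q = 0.893), with q-values from the authors' deposited table. Endothelial markers, whose cells lie on such membranes, had a summed level of 81.5 FPKM in Prmt5cKO and 85.2 in control. None of 8 passed the threshold and 2 were untested, against 21.9% of all named genes that fell or rose. Of the 8 markers 6 had lower values, among them the untested Pecam1 at 11.0 FPKM in Prmt5cKO and 13.9 in control. Emcn was higher, at 10.7 and 9.37.

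Col4a5 departed from that pair, with 4.49 FPKM in Prmt5cKO and 8.67 in control, a log2 ratio of -0.95 and a q of 0 in the authors' deposited table. It is X-linked, and among 395 X-linked genes of at least 1 FPKM 22% fell and 2.53% rose. Its X-linked partner Col4a6, with which it forms the collagen IV of smooth muscle and some epithelia, was under the minimum at 0.704 FPKM in Prmt5cKO and 0.827 in control (q = 0.629 in the authors' deposited table). The kidney and lung chains Col4a3 and Col4a4 were close to 0, at 0.0360 and 0.0201 FPKM in Prmt5cKO, against 0.0401 and 0.0255 in control.

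Collagen VIII chains form hexagonal lattices under vessel and corneal endothelium. Col8a2 had 1.30 FPKM in Prmt5cKO and 3.26 in control (log2 ratio -1.32, q = 1.07e-06 in the authors' deposited table). Col8a1 had 2.09 FPKM in Prmt5cKO and 2.76 in control and did not pass, with q = 0.228 in the authors' deposited table. Col10a1, the collagen of hypertrophic cartilage, was below the minimum at 0.645 and 0.702 FPKM in Prmt5cKO and control.

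The promoters of Col4a1 and Col4a2 are shown because these neighbouring genes point away from each other and share their start region, and both levels stayed near control. The Col4a1 window is chr8:11312777-11313076 on the minus strand and the Col4a2 window chr8:11312555-11312854 on the plus strand of GRCm38.p6. Capitals mark the 78 bases that both windows cover, which read as reverse complements of each other.
Col4a1: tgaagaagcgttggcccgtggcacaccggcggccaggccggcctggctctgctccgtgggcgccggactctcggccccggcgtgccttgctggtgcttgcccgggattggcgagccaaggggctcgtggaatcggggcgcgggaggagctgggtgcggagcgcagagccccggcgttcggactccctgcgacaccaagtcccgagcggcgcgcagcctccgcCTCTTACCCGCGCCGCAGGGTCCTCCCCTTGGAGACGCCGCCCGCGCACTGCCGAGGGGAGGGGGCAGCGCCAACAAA
Col4a2: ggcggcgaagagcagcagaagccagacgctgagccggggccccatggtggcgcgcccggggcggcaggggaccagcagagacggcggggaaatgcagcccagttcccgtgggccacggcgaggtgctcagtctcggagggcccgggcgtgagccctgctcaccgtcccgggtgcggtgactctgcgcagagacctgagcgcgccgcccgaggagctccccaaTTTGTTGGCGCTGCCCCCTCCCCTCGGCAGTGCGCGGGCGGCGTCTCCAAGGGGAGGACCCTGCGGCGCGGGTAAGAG
The RefSeq starts lie 21 bases apart inside this stretch.

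Other neighbouring chains were set side by side in the same way. In GENCODE M21 on GRCm38 (mm10) Col3a1 (chromosome 1, 45311538 to 45349706, plus strand) and Col5a2 (45374321 to 45503282, minus strand) lie tail to tail 24614 bases apart, and both fell. Col9a1 and Col19a1 also lie tail to tail on chromosome 1, 9205 bases apart, with log2 ratios of -1.40 and -0.26. On the X chromosome Col4a6 (141165403 to 141474076, minus strand) and Col4a5 (141475385 to 141689234, plus strand) are head to head with 1309 bases between their starts, and their log2 ratios were -0.23 and -0.95. Col6a2 and Col6a1, in the same orientation on chromosome 10, had log2 ratios of -0.44 and -0.80.

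Collagen VI forms beaded filaments around cells. Of 4 beaded chains at 1 FPKM or more 1 fell, none rose, 2 missed the threshold and Col6a3 was untested (25% fallen, against 17.6% of all genes). The class median was -0.52, and -0.21 with no minimum. The latter takes in Col6a6 and Col6a4, with log2 ratios of -0.32 and -0.70 before 1 FPKM was added and -0.038 and -0.021 after. Col6a1 had 5.61 FPKM in Prmt5cKO and 9.80 in control (log2 ratio -0.80, q = 6.73e-05 in the authors' deposited table). Col6a2 had 5.20 FPKM in Prmt5cKO and 7.07 in control and did not pass, with q = 0.0756 in the authors' deposited table. Col6a3 had 4.40 FPKM in Prmt5cKO and 7.56 in control and was not tested by the authors. These 3 chains make the common form of the molecule, and all had lower values in Prmt5cKO. Col6a5, a later alternative to Col6a3, was 1 of 2 chains with a higher value, at 2.01 FPKM in Prmt5cKO and 1.91 in control (q = 0.795 in the authors' deposited table), and its cluster neighbours Col6a6 and Col6a4 were at 0.120 and 0.0241 FPKM in Prmt5cKO, against 0.150 and 0.0391 in control.

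Of 4 membrane chains, all at 1 FPKM or more, Col25a1 fell and 3 did not pass (25%, against 17.6% of all genes), with a class median of -0.22. Col25a1, needed in mice for motor axons to innervate muscle, had 8.22 FPKM in Prmt5cKO and 14.7 in control, a log2 ratio of -0.84 with a q of 0 in the authors' deposited table. Muscle markers beside it summed to 41.5 FPKM in Prmt5cKO and 47.9 in control, with 1 of 4 at 1 FPKM or more fallen. Only 2 of the 6 listed had lower values in Prmt5cKO, so the lower sum does not hold for most of them. Nerve and Schwann precursor markers summed to 15.9 and 18.8, with 1 of 3 at 1 FPKM or more fallen. Of the 5 listed, 2 had lower values. The part of either set in the change of Col25a1 was not tested. Col23a1 had 7.65 FPKM in Prmt5cKO and 9.80 in control (q = 0.0767), and Col13a1, a component of the neuromuscular junction, had 0.966 and 1.13 (q = 0.639), with q-values from the authors' deposited table. Col17a1, which anchors basal epidermal cells in hemidesmosomes, had 6.76 FPKM in Prmt5cKO and 7.33 in control (q = 0.469 in the authors' deposited table). Surface ectoderm markers summed to 156 FPKM in Prmt5cKO and 165 in control, with 1 of 8 risen and 1 fallen.

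Chains outside the 5 classes included abundant genes close to control. Of 3 at 1 FPKM or more none passed, 2 did not pass and 1 was not tested. Col18a1, the basement membrane chain that yields endostatin, had 48.3 FPKM in Prmt5cKO and 50.5 in control, and its relative Col15a1 had 5.12 and 5.15, with q = 0.759 and 0.969 in the authors' deposited table. Col26a1, a short collagen, had 39.7 FPKM in Prmt5cKO and 56.2 in control (log2 ratio -0.50) and was not tested by the authors. Col28a1, known from peripheral nerve, was at 0.0376 FPKM in Prmt5cKO and 0.188 in control, under the minimum.

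Some ratios between chains of 1 collagen or of the cartilage fibril were close in the genotypes, and others were apart. Per length, Col9a2 stood at 0.228 of Col9a1 in both Prmt5cKO and control, while Col9a3 stood at 0.153 of Col9a1 in Prmt5cKO and 0.194 in control. Col11a1 relative to Col2a1 was 0.312 in Prmt5cKO and 0.311 in control, and Col5a1 relative to Col5a2 was 0.355 and 0.340. Col4a2 relative to Col4a1 was 0.712 in Prmt5cKO and 0.675 in control. The order of the collagen VIII chains was turned round, with Col8a1 at 1.61 times Col8a2 in Prmt5cKO and 0.845 times in control. This pair was not taken as partners in 1 trimer, and Col8a1 had not passed the threshold. Col4a6 relative to Col4a5 was 0.157 in Prmt5cKO and 0.0954 in control, with Col4a6 below 1 FPKM in both. No ratio has a replicate error, so none of these shifts was tested.

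**Figure D4:**
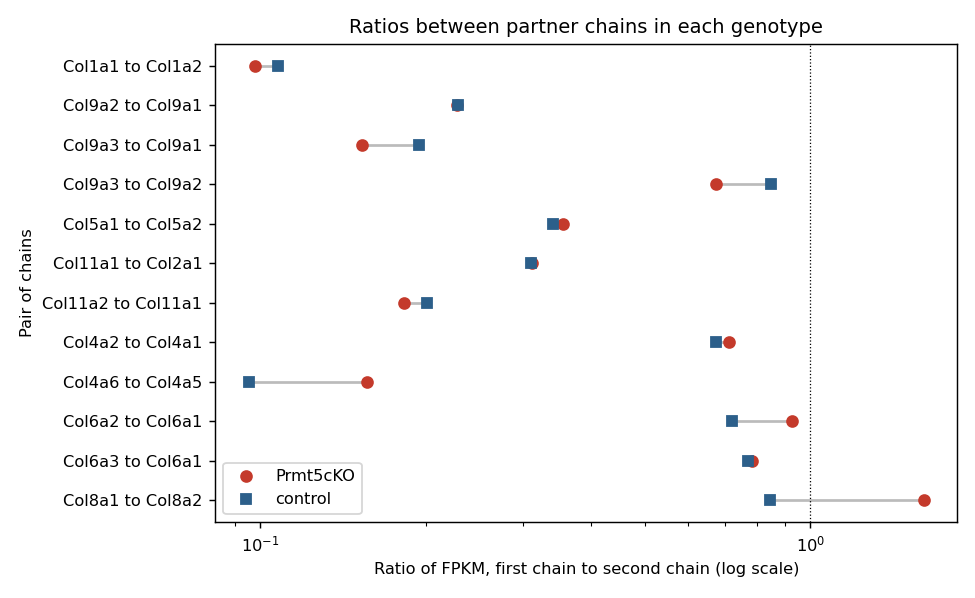
Ratio of FPKM between chains of 1 collagen or of the cartilage fibril on a log axis, Prmt5cKO as circles and control as squares. The dotted line is at a ratio of 1. Circles and squares coincide for Col9a2 to Col9a1 and for Col11a1 to Col2a1, and lie farthest apart for Col8a1 to Col8a2, at 1.61 in Prmt5cKO and 0.845 in control.

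Gene structure was compared with the response because collagen genes have many exons. The 32 chains at 1 FPKM or more had a median of 49.5 exons in their longest GENCODE M21 transcript, against 9 over 11145 named genes of that level. Among all 535 such genes with 30 or more exons, collagens included, 22.8% fell, against 17.7% of the 11145 genes, and the median log2 ratio was -0.11, against -0.12 for all named genes. Within the 32 chains exon number and log2 ratio had a Spearman rho of 0.02, a description over genes that share samples. Chains that fell had a median of 51.5 exons and the others 42.5. Exons of other genes overlap 6 of the 32 chains; the widest overlap is that of Col9a3, where 234 exon bases (7.68%) are shared with Tcfl5 on the other strand, and the sources used here do not say whether the libraries kept the strand.

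Promoter composition was set side by side for chains that fell and for the others, with no test. Promoter windows of 300 bases were matched for 33 of the 42 chains and for 12 of the 16 that fell; Col12a1, Col14a1, Col1a1, Col22a1, Col26a1, Col2a1, Col4a3, Col5a2 and Col9a3 had no window in the reference. The median GC content was 60% over the 13 windows of chains that fell and 60.2% over the 16 windows of other chains at 1 FPKM or more, against 52.7% over all promoters. The median number of CpG dinucleotides was 11 in windows of chains that fell and 14 in the others, against 7 over all promoters. GC boxes stood in 9 of those 13 windows (69.2%) and in 9 of those 16 (56.3%), against 35.7% of all windows. CCAAT stood in 6 of the 13 (46.2%) and in 4 of the 16 (25%), against 37.4% of all windows. A match is a description of letters and not evidence of binding.

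Genes that fold, cut and bind collagen also had falls and no rises, set against 17.6% of all named genes fallen and their median of -0.12. Of 18 genes for chain folding and secretion at 1 FPKM or more 8 fell, 8 missed the threshold and the authors left 2 untested; the median log2 ratio was -0.29. P4ha3, a subunit of the enzyme that hydroxylates prolines of the helix, had 1.76 FPKM in Prmt5cKO and 3.24 in control, and Sec23a, a coat protein of the vesicles that carry procollagen, 27.8 and 43.2. The authors' deposited table lists Fkbp14, a prolyl isomerase, with a log2 fold change of -0.69. The collagen chaperone Serpinh1 stood at 329 FPKM in Prmt5cKO and 392 in control and did not pass, with q = 0.0901 in the authors' deposited table. Of 9 genes listed for propeptide cleavage and crosslinking 4 fell, 4 missed the threshold and the authors left 1 untested. The median was -0.32. The list also counts Sparc, a collagen-binding matrix protein and not an enzyme of these steps. Sparc was among the falls, at 38.5 FPKM in Prmt5cKO and 54.4 in control. The lysyl oxidase family gene Loxl1 had 1.93 FPKM in Prmt5cKO and 7.14 in control, its relative Loxl3 had 4.17 and 6.71, and Tll1, a protease that removes propeptides, had 0.811 and 1.21. Of 6 collagen receptor genes 2 fell, 3 missed the threshold and the authors left 1 untested; the median was -0.18. Itga11, an integrin chain that binds collagen I, had 1.90 FPKM in Prmt5cKO and 3.32 in control, and Ddr1, a collagen-activated kinase, had 7.22 and 8.65.

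Markers of the cells that make these chains moved unevenly beside them. Cartilage condensation genes summed to 28.3 FPKM in Prmt5cKO and 43.1 in control. Of 4 at 1 FPKM or more Sox9 and Sox5 fell, Hapln1 did not pass and Sox6 was not tested, against 17.6% of all named genes fallen. Sox9 had 9.98 FPKM in Prmt5cKO and 15.1 in control, and Hapln1 was higher, at 4.05 and 3.26. Acan, the cartilage proteoglycan, was under the minimum on average at 0.714 FPKM in Prmt5cKO and 1.21 in control. Matn1, also under the minimum, was level at 0.588 and 0.591. Tendon genes summed to 30.1 FPKM in Prmt5cKO and 55.7 in control, where Scx, the tendon transcription factor, had 22.3 and 43.3 and fell, Tnc was not tested and Tnmd was under 1 FPKM. Limb mesenchyme genes summed to 466 FPKM in Prmt5cKO and 467 in control. None of 6 passed the threshold and 1 was untested, against 21.9% of all named genes that fell or rose. The sum joins values in both directions: 4 of the 6 were lower in Prmt5cKO. Msx1 was higher, at 77.9 FPKM in Prmt5cKO and 62.4 in control, with q = 0.0545 in the authors' deposited table. The part of these cell types in the collagen falls was not tested.

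**Figure D5:**
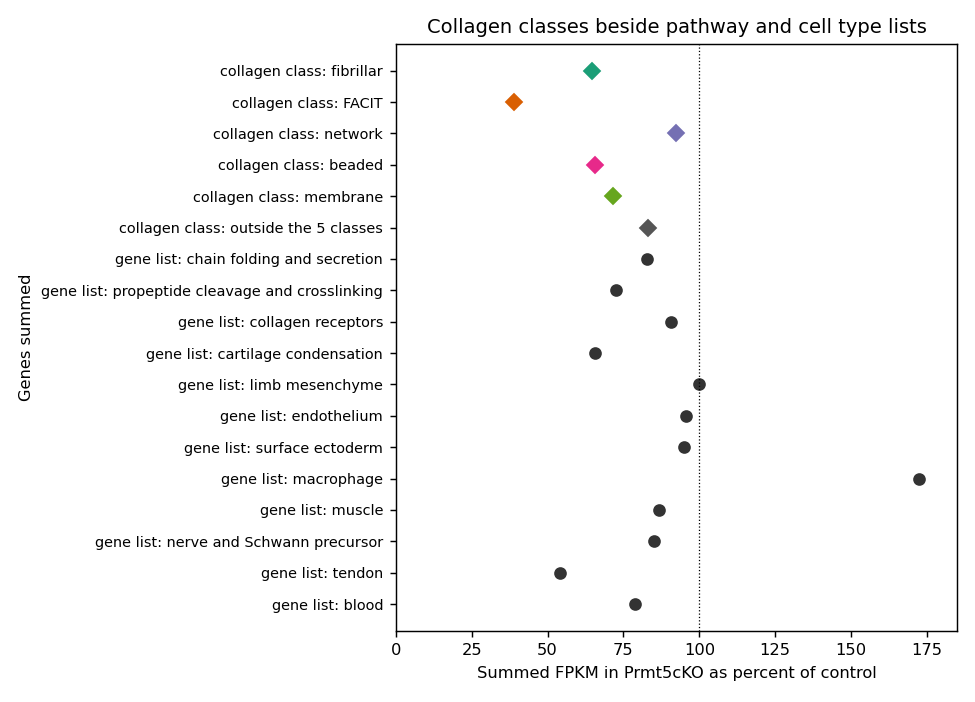
Summed FPKM in Prmt5cKO as a percent of control for each collagen class (diamonds) and for pathway and marker lists (circles), with the dotted line at 100. FACIT chains, whose sum is mostly Col9a1, lie lowest at 38.9%, tendon genes at 54.1% and limb mesenchyme genes at 99.9%, while macrophage genes lie at 172%.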

How the data were processed

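RNA was extracted from forelimbs with TRIzol and made into Illumina libraries, per the labels' protocols. Cufflinks 2.1.1, TopHat2 2.0.10 and Bowtie2 2.1.0 appear with the build mm10 in the submitters' processing notes, which state no role or setting. Annotation, test, adjustment and the way replicates were combined: not given in the sources used here. A deposited table of 28092 rows holds, per the file headers, 1 FPKM value per genotype, the authors' log2 fold change and the authors' q-value. It has no values per sample, so the planned fits per sample were replaced by the authors' q, no p-value was computed, and depth per sample is unknown. The authors' log2 fold changes differed from the log2 of the FPKM ratio by at most 1.3e-05 over 20663 rows, so ratios in the text were computed from the FPKM, also for rows the authors did not test (a fold of 0 with a q of 1). Rows without a gene name (15.5% of rows, 2.08% of the summed FPKM in Prmt5cKO and 1.94% in control) were left out.

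For each single symbol the row with the highest mean was kept. A gene rose or fell at a mean of at least 1 FPKM and the authors' q under 0.05. Medians use log2 ratios with 1 FPKM added to both values, which understates changes of low genes. FPKM corrects for length and total, not for composition. All chains at 1 FPKM or more are named, and up to 3 of each list by size of change. Serpinh1, Sparc, Sox6, Hapln1, Acan, Matn1, Msx1, Tnc, Tnmd, Pecam1, Emcn and the control genes are named besides, and were chosen after their values were seen. The members, classes and lists were chosen with earlier results of these data known. The code for calls and medians was run on a simulated table with fold changes and q-values set in advance. That run checks the code only, since its outcome was fixed, and says nothing on how reliable the calls are. Sequences are RefSeq promoters on GRCm38.p6; positions are from GENCODE M21. Alternatives were other pseudocounts, minimum levels, scalings, q thresholds, row choices and class limits. Python 3.11.15, pandas 2.3.3, numpy 2.4.6 and matplotlib 3.10.9 were used.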

Additional observations from a re-analysis of the deposited data

How the results depend on the processing

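No collagen chain rose and 13 to 18 fell under every alternative that counted chains. These counts rest on the authors' q, which stayed the same under other pseudocounts, scalings and row choices. Each of those gave 16, so they are no check of the count. Only the minimum level, the q threshold and the chains included could move it. A minimum mean of 5 FPKM gave 13 and the authors' q under 0.1 gave 18, which added Col6a2 and Col23a1. With 1 FPKM needed in either genotype, chosen after seeing the data, 17 fell, and without the X-linked Col4a5, also chosen then, 15. The median log2 ratio of all chains was -0.35 with no minimum mean and -0.40 after rescaling to a median ratio of 1, which adds 0.13 to log2 ratios taken without a pseudocount and less to those with 1 FPKM added. The FACIT median was -1.40 and -1.41 with pseudocounts of 0.1 and 0.01, -0.90 with no minimum and -1.15 after that rescaling. The fibrillar median was -0.44 after rescaling. The network median was -0.38 and -0.40 with pseudocounts of 0.1 and 0.01, -0.049 with no minimum, -0.045 with a minimum of 5 FPKM, -0.045 for basement membrane chains alone and -0.16 without X-linked chains. The beaded median was -0.21 with no minimum, -0.66 with a minimum of 5 FPKM, -0.41 after rescaling and -0.38 without untested rows. The membrane median was -0.32 with a minimum of 5 FPKM. With few chains per class, adding or dropping 1 moves a median. Medians with no minimum also take in chains under 1 FPKM, whose ratios are shrunk by the added 1 FPKM. Col6a4 had a log2 ratio of -0.70 without that addition and -0.021 with it, and Col10a1 -0.12 and -0.049. Other causes of these moves were not tested. Chains near control changed sign with scaling. After rescaling to a median ratio of 1, Col15a1, Col17a1, Col18a1, Col27a1 and Col4a1 stood at 0.122, 0.014, 0.068, 0.127 and 0.085. After rescaling to equal totals, Col15a1, Col18a1, Col27a1 and Col4a1 stood at 0.082, 0.028, 0.087 and 0.046. None of these had passed. The authors' q was not recomputed under any scaling. Leaving out each replicate was not run. No paired analysis was possible because the table holds 1 value per genotype. The spread between embryos and the depth therefore limit every statement by an unknown amount.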

Other observations

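Collagen chains in rows that name several genes lay outside the choice of members. The row of Col7a1, the anchoring fibril chain of skin, with Mir711 had 1.42 FPKM in Prmt5cKO and 1.80 in control and a q of 0.284 in the authors' deposited table. The row of Col20a1 with Arfgap1 had 26.9 FPKM in Prmt5cKO and 27.6 in control, and its level cannot be divided between these genes.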
